A study of Mus musculus with 8 samples.

Results

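Transcripts of 36 cell cycle genes were examined in the renal cortex of mice at postnatal day 7, in a table of 35275 genes. The genes were taken by symbol from a list chosen with earlier results of these libraries known. They comprised 9 genes of DNA replication in S phase, 20 genes that act in or peak towards mitosis, and 7 genes of G1 and the entry into S phase. All 36 were found in the table, and all 36 passed the filter on low counts, among 15028 genes tested. The 8 libraries came from 4 mutant mice, labelled as Six2-Tfam knockouts (Mut1393, Mut1453, Mut1454 and Mut1819) and 4 Cre-negative control mice (Con1391, Con1452, Con1822 and Con1823), with 1 library per mouse. As background, Tfam encodes a protein that packages mitochondrial DNA and acts in starting its transcription. A Cre driven by Six2 acts in nephron progenitors and their descendants. It so removes Tfam from the nephron epithelium but not from collecting duct, vessels, stroma or immune cells. No library carried the Cre with intact Tfam, so effects of Tfam loss and of the Cre transgene cannot be told apart.

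Progress through the cell cycle is driven by cyclins and their kinases. D-type cyclins act in G1, after which cyclin E and the E2F factors start S phase, when the MCM helicase opens the DNA, PCNA holds the polymerases in place and RRM2 and TYMS supply nucleotides. Mitotic genes are transcribed later, in G2 and M, and their mRNAs are scarce in resting cells, so that Mki67 and Top2a serve as marks of dividing cells. In the mouse, nephrons are still being completed in the days after birth, and the growing tubules of the young kidney contain dividing cells.

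Tfam averaged 27.0 ± 0.465 CPM in mutants and 53.1 ± 2.96 CPM in controls (SD, n = 4 each), with no overlap. CPM here are read counts scaled to a common library size. Total counts ranged from 15597762 to 20417550 per library, and the counts of single members from 108 for Ccne1 in Con1823 to 6056 for Ccnd1 in Mut1393. Y-linked transcripts of 4 genes summed to between 4294 and 4915 counts in Mut1393, Mut1453 and Mut1454 but to 27 in Mut1819, against 0 to 3 in the controls. The mutant and control groups therefore differ in sex-linked transcripts as well, with Mut1819 as the single mutant that resembles the controls. Transcripts of the proximal tubule, the main cell type of renal cortex, were present in both groups, with a summed level of 10 markers of 625 to 1193 CPM in mutants and 5628 to 7714 CPM in controls. In bulk cortex, fewer cells of a type and less RNA per cell cannot be told apart.

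Of the 36 members, 11 were higher and 2 lower in mutants at an adjusted p under 0.05 (edgeR's quasi-likelihood test, Benjamini-Hochberg adjustment over all genes tested), and 23 did not pass the test. Over all genes tested the share past the threshold was 46.2%, with 23.5% higher and 22.7% lower, so the 36.1% of the members called was no larger than in the transcriptome as a whole. The 11 higher members made up 30.6% of the list and the 2 lower members 5.56%. The differences were small, with log2 fold changes (mutant over control) from -0.53 for Ccnd3 to 0.67 for Ccne1. Their median was 0.19 over the members and -0.00078 over all genes tested, and 30 of the 36 were above 0. The 4 mutants lay wholly above or below the 4 controls for 8 members, 6 higher and 2 lower, or 22.2% of the list, against 43.0% of all genes tested.

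**Figure D1:**
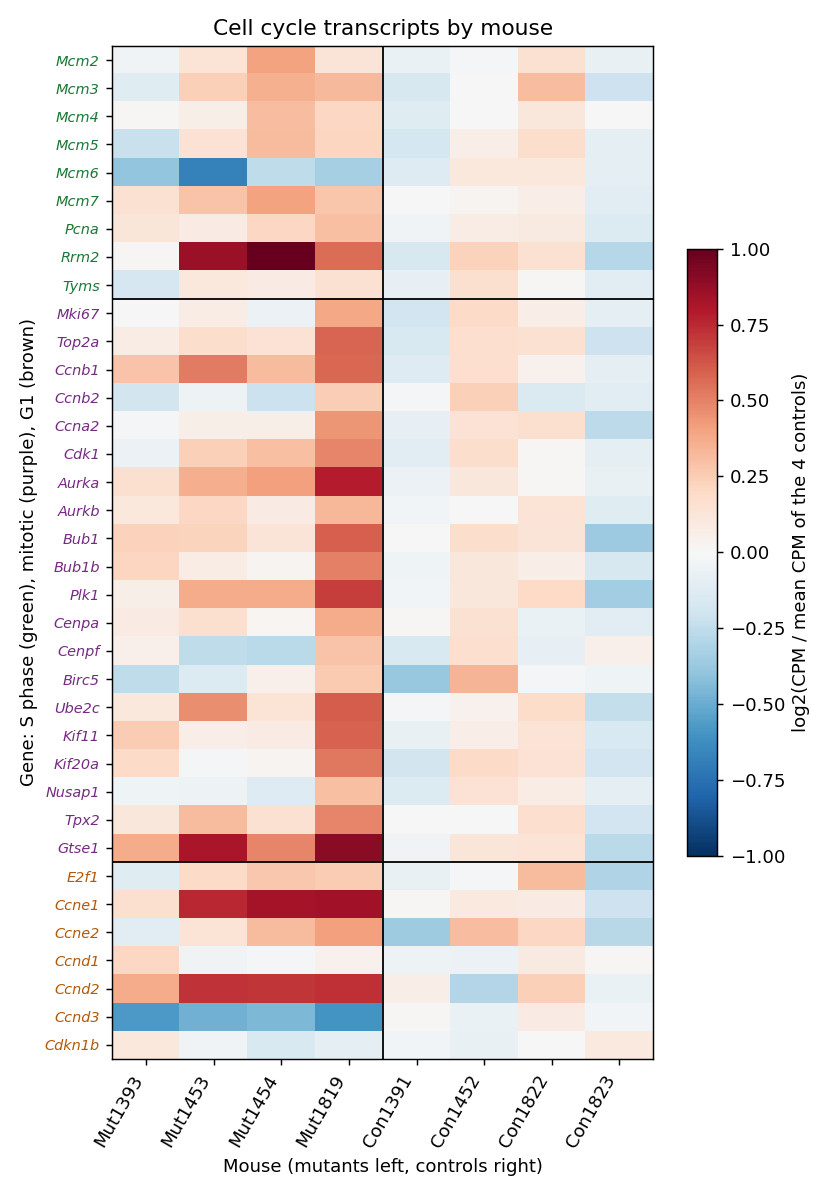
Heat map of the 36 members in each mouse, as the log2 ratio of CPM to the mean CPM of the 4 controls (colour, blue below and red above 0, saturated at -1 and 1), with mutants left and controls right and the S phase, mitotic and G1 genes in blocks from top to bottom. The mitotic block is reddest in the column of Mut1819, and Mcm6 and Ccnd3 are blue in all 4 mutants.

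Stretches of promoter are shown for 6 members, 5 of which were higher in mutants (Aurka, Plk1, Ube2c, Ccnb1 and Rrm2) and 1 lower (Mcm6), because mitotic and S phase genes are known for short elements near their start. In mitotic genes these are the cell cycle homology region, with the core letters TTTGAA, and CCAAT boxes, which bind the factor NF-Y; in S phase genes they are E2F sites, searched as TTTCCCGC, TTTGGCGC, TTCCCGCC and TTTGGCGG. The sequences are RefSeq promoters of GRCm38.p6, from 200 bases before to 50 bases after the start, 5′ to 3′ on the strand of the gene. Capitals mark every match to any of these motifs on either strand, so that ATTGG and TTCAAA are the reversed forms of CCAAT and TTTGAA. The windows are chr2:172370521-172370770 (minus strand) for Aurka, chr7:122159235-122159484 (plus) for Plk1, chr2:164769729-164769978 (plus) for Ube2c, chr13:100786437-100786686 (minus) for Ccnb1, chr1:128359656-128359905 (minus) for Mcm6 and chr12:24708054-24708303 (plus) for Rrm2.
Aurka: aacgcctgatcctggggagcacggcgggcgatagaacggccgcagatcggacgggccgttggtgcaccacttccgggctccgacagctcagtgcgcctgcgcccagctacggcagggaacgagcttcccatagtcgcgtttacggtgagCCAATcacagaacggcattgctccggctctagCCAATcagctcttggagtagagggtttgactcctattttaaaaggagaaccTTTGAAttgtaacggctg
Plk1: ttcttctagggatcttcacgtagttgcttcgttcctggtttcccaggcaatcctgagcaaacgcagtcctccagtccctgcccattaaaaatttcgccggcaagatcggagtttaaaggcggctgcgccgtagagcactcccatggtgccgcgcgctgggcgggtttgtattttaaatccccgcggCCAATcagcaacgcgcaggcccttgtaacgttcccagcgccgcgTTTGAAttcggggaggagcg
Ube2c: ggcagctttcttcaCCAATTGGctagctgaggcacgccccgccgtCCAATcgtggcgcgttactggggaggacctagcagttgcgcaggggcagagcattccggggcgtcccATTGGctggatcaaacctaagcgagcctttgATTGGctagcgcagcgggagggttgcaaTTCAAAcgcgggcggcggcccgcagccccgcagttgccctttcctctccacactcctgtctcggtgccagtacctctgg
Ccnb1: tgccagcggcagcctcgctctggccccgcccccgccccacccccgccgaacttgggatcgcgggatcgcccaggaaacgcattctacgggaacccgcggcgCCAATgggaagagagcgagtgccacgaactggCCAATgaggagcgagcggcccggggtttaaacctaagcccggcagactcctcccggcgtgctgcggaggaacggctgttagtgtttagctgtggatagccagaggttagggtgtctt
Mcm6: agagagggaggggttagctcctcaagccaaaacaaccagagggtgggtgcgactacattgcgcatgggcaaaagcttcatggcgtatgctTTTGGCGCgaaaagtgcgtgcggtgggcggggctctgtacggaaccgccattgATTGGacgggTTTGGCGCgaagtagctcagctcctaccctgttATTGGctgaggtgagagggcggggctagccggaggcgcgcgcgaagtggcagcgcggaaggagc
Rrm2: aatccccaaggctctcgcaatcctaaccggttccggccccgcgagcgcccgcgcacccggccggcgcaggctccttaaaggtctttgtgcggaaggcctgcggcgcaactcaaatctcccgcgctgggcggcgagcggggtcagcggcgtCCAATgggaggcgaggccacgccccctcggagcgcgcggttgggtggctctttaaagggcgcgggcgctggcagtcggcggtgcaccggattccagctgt

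The promoter table held 31 promoters of 28 of the 36 members, each with 250 bases before and 50 bases after the start. TTTGAA stood in 11 of 17 promoters of mitotic members (64.7%), in 1 of 9 of S phase members and in 0 of 5 of G1 members, against 17.9% of the 32851 promoters in the table. CCAAT stood in 15 of 17 mitotic promoters (88.2%) and in 8 of 9 S phase promoters (88.9%), against 37.4% of all promoters. TTTGGCGC stood in 3 of 9 S phase promoters, those of Mcm3, Mcm5 and Mcm6, against 0.514% of all. TTTCCCGC stood in 2 of 9 and TTCCCGCC in 1 of 9 S phase promoters, against 1.07% and 2.19% of all, and in Mcm3 these letters overlap each other. TTTGGCGG was in no promoter of a member. Promoters with and without TTTGAA were found both among members that passed the test and among those that did not. Aurka, Plk1 and Ube2c, which were higher in mutants, held TTTGAA, but so did Mki67, Ccnb2 and Cenpf, which did not pass the test, and Ccnb1 and Gtse1, which were higher, held CCAAT alone. Among the windows printed above, that of Mcm6 holds TTTGGCGC at 2 places. In Ube2c the first 2 of 5 CCAAT matches overlap each other on opposite strands.

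Among the S phase members, Rrm2, Mcm7 and Pcna rose in mutants, Mcm6 fell and the other 5 missed the threshold. The median log2 fold change was 0.17. The share called was 44.4%, close to the 46.2% of all genes tested. Of the S phase members 33.3% were higher and 11.1% lower, against 23.5% and 22.7% of all genes tested. Mcm6, a subunit of the hexameric MCM helicase, is at mm10 chromosome 1, 128331590 to 128359664, minus strand. It had 98.5, 81.0, 109 and 103 CPM in mutants Mut1393, Mut1453, Mut1454 and Mut1819, against 119, 139, 139.8 and 121 CPM in controls Con1391, Con1452, Con1822 and Con1823. Every mutant was below every control, and Mcm6 fell to 97.9 ± 11.999 CPM in mutants, against 129.6 ± 11.4 CPM in controls (log2 fold change -0.40, SE 0.09, adjusted p = 0.00312). Mcm7, another subunit of the helicase (chromosome 5, 138164583 to 138172422, minus strand), moved the other way. It had 87.2, 95.7, 104 and 95.2 CPM in mutants in the same order, against 78.9, 79.8, 82.3 and 73.0 CPM in controls. All 4 mutants were above all 4 controls (log2 fold change 0.28, SE 0.06, adjusted p = 0.00313). The exons of Mcm7 overlap those of other genes over 12.6% of their length. Of this, 385 bases are shared with Ap4m1 and Cops6 on the opposite strand and 172 with Mir25 and Mir93 on the same strand. No source used here says whether reads were assigned by strand.

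The other 4 helicase subunits did not pass the test. Mcm2, Mcm3, Mcm4 and Mcm5 had log2 fold changes of 0.17, 0.21, 0.15 and 0.13, and their groups overlapped. In all 4, Mut1393 was the lowest mutant and Mut1454 the highest, and Con1822 was the highest control. Mcm2 had 73.5, 82.7, 99.9 and 82.5 CPM in mutants, against 72.1, 74.5, 83.8 and 71.5 CPM in controls. Mcm5 had 49.5, 64.0, 71.9 and 67.2 CPM in mutants, against 51.2, 60.3, 65.2 and 54.3 CPM in controls. In Mut1393 both were within the range of the controls or below it. Per length, as the authors' FPKM, Mcm6 averaged 48.2 ± 5.98 in mutants and 60.6 ± 5.47 in controls, and Mcm7 91.6 ± 5.80 in mutants and 71.6 ± 4.84 in controls. The other 4 subunits averaged 18.02 to 41.5 FPKM in mutants and 15.4 to 34.2 FPKM in controls, so Mcm7 and Mcm6 were the most abundant of the 6 in both groups.

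Rrm2 encodes the small subunit of ribonucleotide reductase, which makes the building blocks of DNA (chromosome 12, 24708241 to 24714146, plus strand), and showed the largest difference of the S phase members. It had 64.9, 117, 130.2 and 95.1 CPM in mutants, against 57.8, 75.6, 71.6 and 53.0 CPM in controls. Mut1453, Mut1454 and Mut1819 were above all controls, whereas Mut1393 was within their range (log2 fold change 0.66, SE 0.18, adjusted p = 0.0112). Pcna, the sliding clamp of the polymerases (chromosome 2, 132249162 to 132253314, minus strand), had 124, 122, 132 and 141 CPM in mutants, against 112, 120.4, 122 and 104 CPM in controls. Mut1453 did not exceed Con1822 and the others did (log2 fold change 0.18, SE 0.07, adjusted p = 0.0454). This call lay just under the threshold and was lost with 8 of the other 17 settings tried, among them median-ratio size factors and leaving out Mut1819 (adjusted p = 0.131), in a range from 0.0329 to 0.14. Of the Pcna transcript, 51.4% is matched at 99% identity by the copy Pcna-ps2, so reads of both could be exchanged. Tyms, thymidylate synthase, averaged 36.7 ± 3.501 CPM in mutants and 35.5 ± 3.08 CPM in controls, with a log2 fold change of 0.05 that did not pass.

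**Figure D2:**
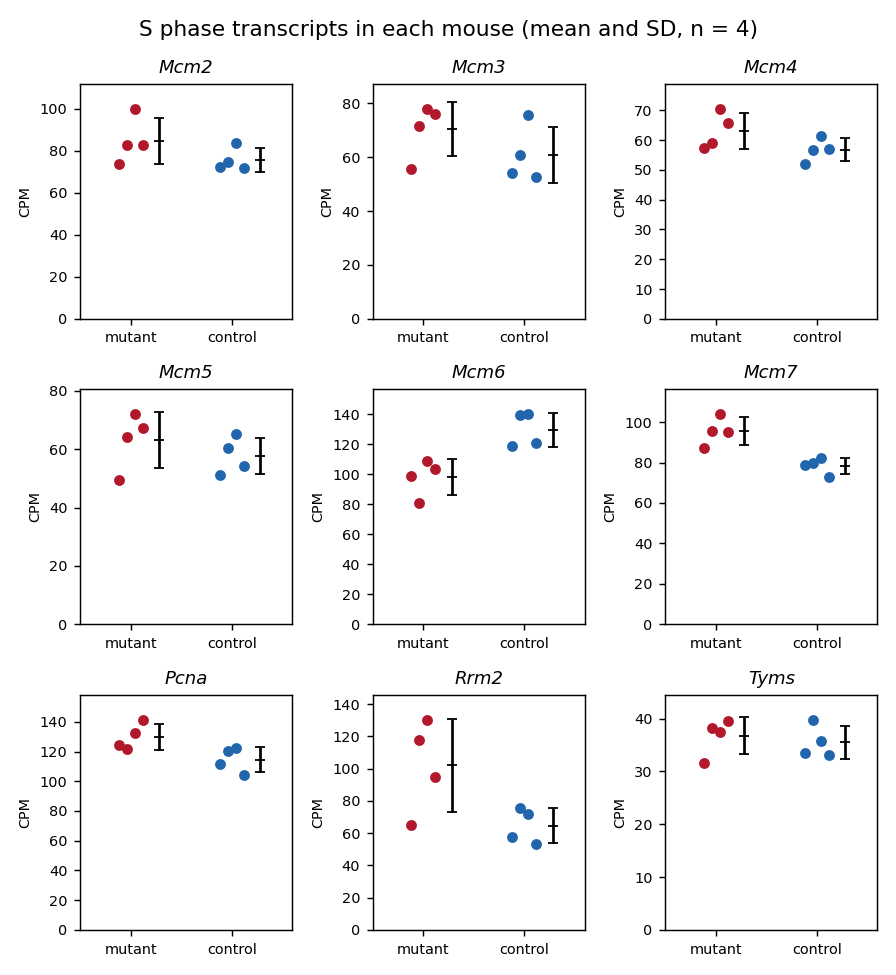
CPM of the 9 S phase members in each mouse, mutants left in red and controls right in blue, with the mean and SD of 4 mice beside the points. For Mcm6 all mutant points are below the control points and for Mcm7 all are above, while for Rrm2 the 4 mutants spread from 64.9 to 130.2 CPM.

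Summed over the 9 S phase members, Mut1393 had 643, Mut1453 732, Mut1454 833 and Mut1819 765 CPM, and the controls Con1391 630.1, Con1452 707, Con1822 738 and Con1823 619.8 CPM. The groups overlapped, and Mut1393 was the lowest mutant for 7 of the 9 genes while Mut1454 was the highest for 7. Without Mut1393 the number of S phase members called higher was 6 in place of 3, with Mcm2, Mcm3 and Mcm5 added, and without Con1822 it was 4. Over all genes, the fits without Mut1393 and without Con1822 called 3570 of 15165 and 3434 of 15226 genes higher. With all libraries it was 3532 of 15028. With the term for Y-linked counts, in which Mut1819 alone stands for the mutants without them, only Pcna was called higher and Mcm6 missed the threshold (log2 fold change -0.33, adjusted p = 0.133); in that fit 12.6% of all genes were called higher and 13.8% lower.

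Of the 20 mitotic members, 6 rose in mutants (30.0%, against 23.5% of all genes tested), 0 fell, and 14 did not pass. At an unadjusted p under 0.05 the number was 10 of the 20, against 7995 of the 15028 genes tested. DESeq2 called 6 members higher and 0 lower, against 23.2% and 22.9% of all genes. The median log2 fold change was 0.24, and 17 of the 20 were above 0. The members that rose were the cyclin gene Ccnb1, the kinase genes Aurka and Plk1, the ubiquitin-conjugating enzyme gene Ube2c, the spindle factor gene Tpx2 and Gtse1.

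Ccnb1 encodes cyclin B1, the partner of CDK1 that drives entry into mitosis, and lies on chromosome 13 (100778650 to 100786570, minus strand). It had 34.1, 40.0, 34.8 and 41.8 CPM in mutants Mut1393, Mut1453, Mut1454 and Mut1819, against 25.6, 31.4, 28.9 and 26.1 CPM in controls Con1391, Con1452, Con1822 and Con1823. All mutants exceeded all controls (log2 fold change 0.43, SE 0.09, adjusted p = 0.00207). The transcript shares 51.7% of its length, at 99% identity, with the pseudogene Ccnb1-ps, and its counts are uncertain to that extent. Its relative Ccnb2 had 29.8, 32.6, 29.2 and 40.1 CPM in mutants, against 33.5, 39.9, 30.7 and 31.3 CPM in controls. Those groups overlapped (log2 fold change -0.04, adjusted p = 0.79). Ccna2, the A-type cyclin of S phase and G2, averaged 48.8 ± 7.41 CPM in mutants and 44.1 ± 6.08 CPM in controls and did not pass. Exons of Ccna2 overlap those of Exosc9 on the opposite strand over 12.5% of their length. Cdk1 itself, the mitotic kinase, had 35.2, 43.2, 45.1 and 51.4 CPM in mutants, against 33.8, 41.3, 37.0 and 34.4 CPM in controls. In 3 of 4 mutants it exceeded the controls, but it missed the threshold (log2 fold change 0.25, adjusted p = 0.0699).

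Aurka, which encodes the kinase that matures the spindle poles (chromosome 2, 172356190 to 172370535, minus strand), had 18.1, 20.8, 21.5 and 27.9 CPM in mutants, against 15.5, 17.5, 16.3 and 15.3 CPM in controls. The groups did not overlap, and Mut1819 was the highest (log2 fold change 0.45, SE 0.12, adjusted p = 0.00987). Tpx2, which activates that kinase on the spindle (chromosome 2, 152847964 to 152895321, plus strand), had 46.9, 54.2, 48.4 and 61.1 CPM in mutants, against 43.5, 43.3, 48.9 and 38.1 CPM in controls. Mut1393 and Mut1454 were within the controls' range (log2 fold change 0.28, SE 0.10, adjusted p = 0.0324). Plk1, a kinase of mitotic entry and cell division (chromosome 7, 122159439 to 122169873, plus strand), had 23.0, 28.52, 28.46 and 35.6 CPM in mutants, against 21.6, 23.8, 25.3 and 17.3 CPM in controls. Mut1393 lay within the controls' range and the others above it (log2 fold change 0.39, SE 0.14, adjusted p = 0.0356).

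Ube2c, which works with the anaphase-promoting complex to mark cyclins for destruction (chromosome 2, 164769898 to 164778822, plus strand), had 29.9, 38.4, 30.6 and 42.3 CPM in mutants, against 27.6, 28.56, 31.5 and 23.5 CPM in controls. Mut1453 and Mut1819 were above the controls and the other two mutants were not (log2 fold change 0.34, SE 0.12, adjusted p = 0.0357). Exons of Ube2c overlap those of Tnnc2 on the opposite strand over 22.8% of their length. Gtse1, a protein of G2 and mitosis that binds microtubules (chromosome 15, 85859745 to 85876573, plus strand), had the largest difference of the mitotic members. It had 11.2, 15.2, 12.1 and 16.2 CPM in mutants, against 8.45, 9.42, 9.53 and 7.19 CPM in controls, with no overlap (log2 fold change 0.66, SE 0.14, adjusted p = 0.00264). Per length Gtse1 was the scarcest of the 36 members, at 5.16 ± 0.969 FPKM in mutants and 3.09 ± 0.400 FPKM in controls.

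The common marks of dividing cells did not pass the test in the fit without further terms. Mki67, which coats mitotic chromosomes, had 141, 148, 136 and 184 CPM in mutants, against 124, 161, 148 and 132 CPM in controls (log2 fold change 0.11, adjusted p = 0.413). Top2a, the topoisomerase that untangles chromosomes, had 129.9, 139.8, 137 and 185 CPM in mutants, against 111, 139, 138 and 107 CPM in controls (log2 fold change 0.26, adjusted p = 0.0954). In both genes Mut1819 stood above the other 7 libraries, and the other 3 mutants lay within the range of the controls or, for Top2a in Mut1453, under 1 CPM above it. Top2a passed narrowly in edgeR with the mouse number range term (log2 fold change 0.28, adjusted p = 0.0475) and without Mut1393 (adjusted p = 0.0498). With the Y-linked term the mutant effect rests on Mut1819 alone, the highest library for both genes. A fit with that term therefore cannot say whether Mki67 or Top2a differed in the other mutants. The checkpoint kinase genes Bub1 and Bub1b had log2 fold changes of 0.30 and 0.22, and Aurkb, the kinase of the chromosomal passenger complex, 0.19. Birc5, which encodes survivin of that same complex, averaged 20.2 ± 3.24 CPM in mutants and 20.3 ± 4.12 CPM in controls. The centromere genes Cenpa and Cenpf had log2 fold changes of 0.16 and -0.03. The motor genes Kif11 and Kif20a, which push spindle poles apart and act in cytokinesis, had 0.26 and 0.20, and Nusap1, which bundles spindle microtubules, had 0.03. Exons of Kif20a overlap Cdc23 on the opposite strand over 29.3% of their length. None of these 9 passed, with adjusted p between 0.0747 and 0.965 (edgeR).

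**Figure D3:**
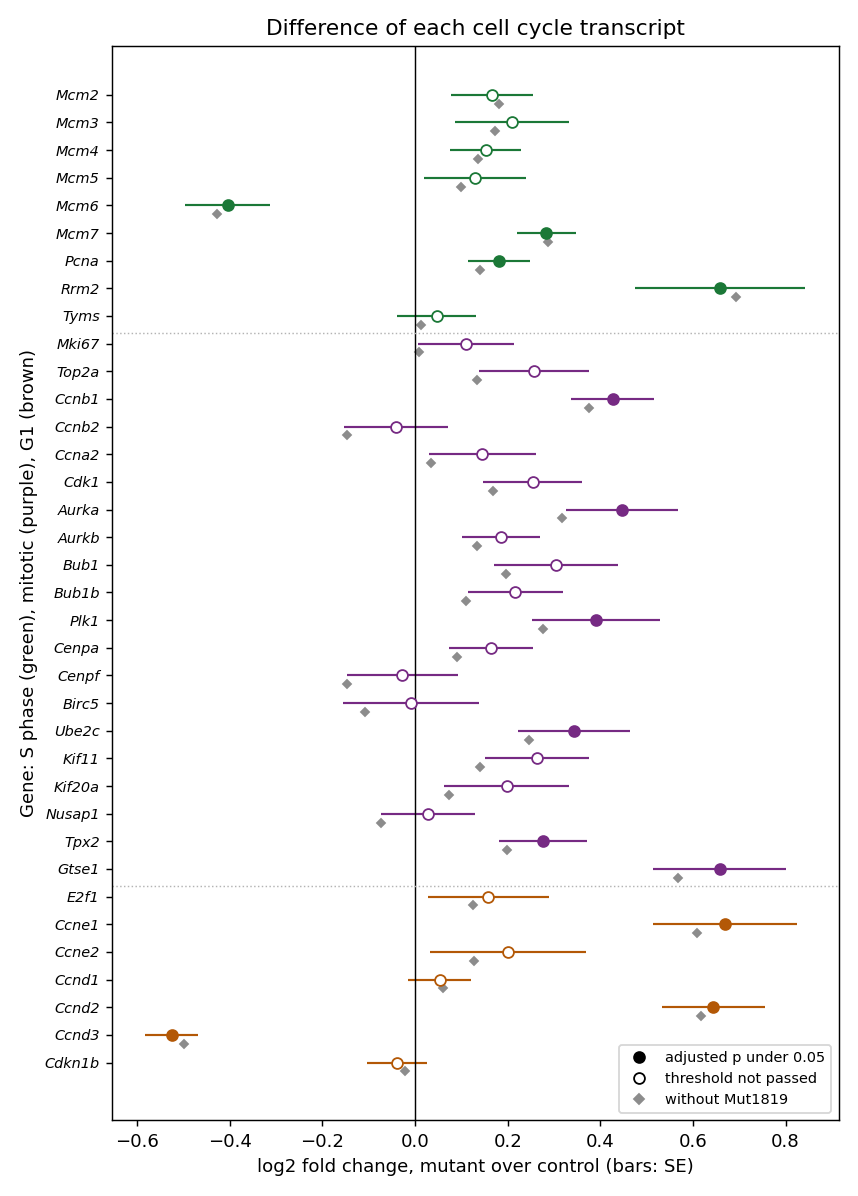
Log2 fold change of each member, mutant over control, with its SE (circles, filled where the adjusted p was under 0.05) and the same value without Mut1819 (grey diamonds). All 20 mitotic members lie further left without Mut1819, and Mcm6, Ccnd2 and Ccnd3 barely move.

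A single library held the highest values of the mitotic members. Mut1819 was the highest of the 4 mutants for all 20 genes, and the highest of all 8 libraries for 19, the exception being Birc5, for which Con1452 was highest. Summed over the 20 genes, Mut1393 had 816, Mut1453 863, Mut1454 819 and Mut1819 1085 CPM, and the controls Con1391 723, Con1452 866, Con1822 826 and Con1823 706 CPM. Apart from Mut1819 the mutants were within the range of the controls. Without Mut1819, 3 mitotic members were called higher in place of 6, namely Ccnb1, Aurka and Gtse1, and the median log2 fold change was 0.13. Without Con1391 or Con1823 the number was likewise 3, and without Mut1453 it was 4, with Kif11 added to these. Over all genes, the fits without Mut1819, Con1391, Con1823 and Mut1453 called 3257, 3284, 3118 and 3083 higher, against 3532 with all 8 libraries. Other settings called more mitotic members: 8 without Mut1393, 8 with no filter on low counts, and 9 with the mouse number range as a term. That last fit called Top2a, Cdk1 and Kif11 as well as the 6. Over all genes, these 3 fits called 3570 of 15165, 3644 of 23229 and 3659 of 15028 genes higher. With the Y-linked term, which leaves Mut1819 to be compared with the controls, all 20 log2 fold changes were above 0 with a median of 0.50. That fit rests on 1 mutant library, the highest mutant for all 20 genes, so it adds no support from the other mutants. Mut1819 was also in the range of mouse numbers from 1800, with Con1822 and Con1823, whose meaning the labels do not give. Within that range the median log2 ratio of the mitotic members was 0.53, against 0.16 in the 1300 range and -0.0032 in the 1400 range. All 6 called members were higher in mutants in each of the 3 ranges. They were called on these same libraries, with few mice per group in a range, so this adds no support. Of all 20 mitotic members, 19 were above 0 in the 1300 range, 10 in the 1400 range and 20 in the 1800 range. Among the mutants, sex-linked transcripts, mouse number range and this 1 library cannot be told apart, as no other mutant was in the 1800 range. The controls of that range, Con1822 and Con1823, had mitotic sums of 826 and 706 CPM.

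**Figure D4:**
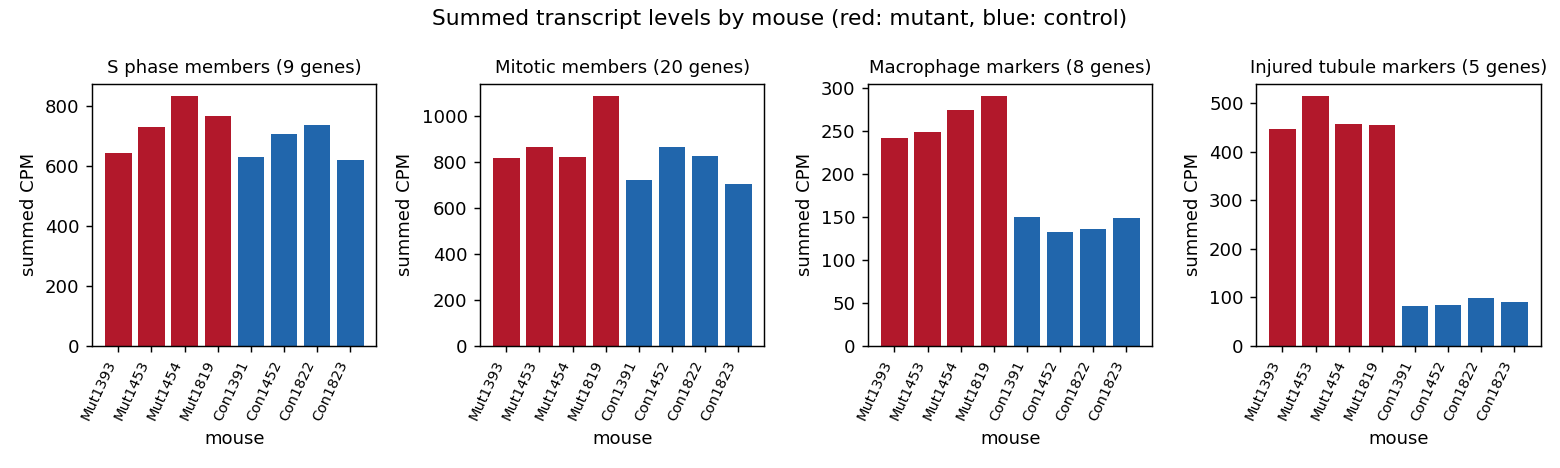
Summed CPM of the 9 S phase members, the 20 mitotic members, 8 macrophage markers and 5 markers of injured tubule in each mouse (bars, mutants in red on the left, controls in blue on the right). Mut1819 reaches 1085 CPM for the mitotic members, while the macrophage and injury markers are higher in every mutant than in every control.

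Among the 7 members of G1, Ccne1 and Ccnd2 rose, Ccnd3 fell and the other 4 missed the threshold; the median log2 fold change was 0.16. These 3 calls held in every setting in which the gene was tested. The share called was 42.9%, close to the 46.2% of all genes tested. Mutants and controls lay apart for 3 of the 7 members, about the 43.0% of all genes tested. The D-type cyclins activate CDK4 and CDK6 in response to growth signals and moved apart from each other. Ccnd2 (chromosome 6, 127125162 to 127152193, minus strand) had 188, 240.1, 239 and 240.3 CPM in mutants Mut1393, Mut1453, Mut1454 and Mut1819, against 152, 118, 172 and 138 CPM in controls Con1391, Con1452, Con1822 and Con1823. Every mutant was above every control, with Mut1393 nearest to them (log2 fold change 0.64, SE 0.11, adjusted p = 0.000534). Ccnd3 (chromosome 17, 47505051 to 47599691, plus strand) had 73.7, 78.9, 80.5 and 72.6 CPM in mutants, against 111, 105, 117 and 108 CPM in controls. Every mutant was below every control (log2 fold change -0.53, SE 0.06, adjusted p = 1.33e-05), and this was the smallest adjusted p among the 36 members.

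Ccnd1 had 295, 249, 252 and 263 CPM in mutants, against 247, 245, 272 and 257 CPM in controls. Its groups overlapped (log2 fold change 0.05, adjusted p = 0.55). Exons of Ccnd1 overlap those of LTO1 on the opposite strand over 23.4% of their length. Per length, Ccnd1 was the most abundant D-type cyclin in both groups, at 129 ± 11.3 FPKM in mutants and 118 ± 9.32 FPKM in controls. Ccnd3 came next at 66.3 ± 2.29 FPKM in mutants and 90.8 ± 7.24 FPKM in controls, and Ccnd2 last at 40.8 ± 4.69 FPKM in mutants and 24.9 ± 4.69 FPKM in controls. The order was thus the same in both groups, with a smaller distance between Ccnd3 and Ccnd2 in mutants.

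Ccne1 encodes cyclin E1, which with CDK2 starts S phase (chromosome 7, 38097984 to 38107534, minus strand). It had 8.38, 12.7, 13.4 and 13.5 CPM in mutants, against 7.57, 8.04, 7.94 and 6.53 CPM in controls. All mutants were above all controls, but Mut1393 exceeded the highest control by under 1 CPM (log2 fold change 0.67, SE 0.16, adjusted p = 0.00393). Ccne2, the second E-type cyclin gene, had 9.36, 11.1, 12.6 and 13.4 CPM in mutants, against 7.89, 12.5, 11.7 and 8.34 CPM in controls, and did not pass (log2 fold change 0.20, adjusted p = 0.355). Exons of Ccne2 overlap those of Ints8 on the opposite strand over 17.4% of their length. E2f1, a transcription factor that switches on S phase genes, averaged 19.3 ± 2.29 CPM in mutants and 17.3 ± 3.12 CPM in controls (adjusted p = 0.344). Cdkn1b, which encodes the CDK inhibitor p27, averaged 99.5 ± 7.53 CPM in mutants and 102 ± 5.10 CPM in controls (log2 fold change -0.04, adjusted p = 0.651).

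**Figure D5:**
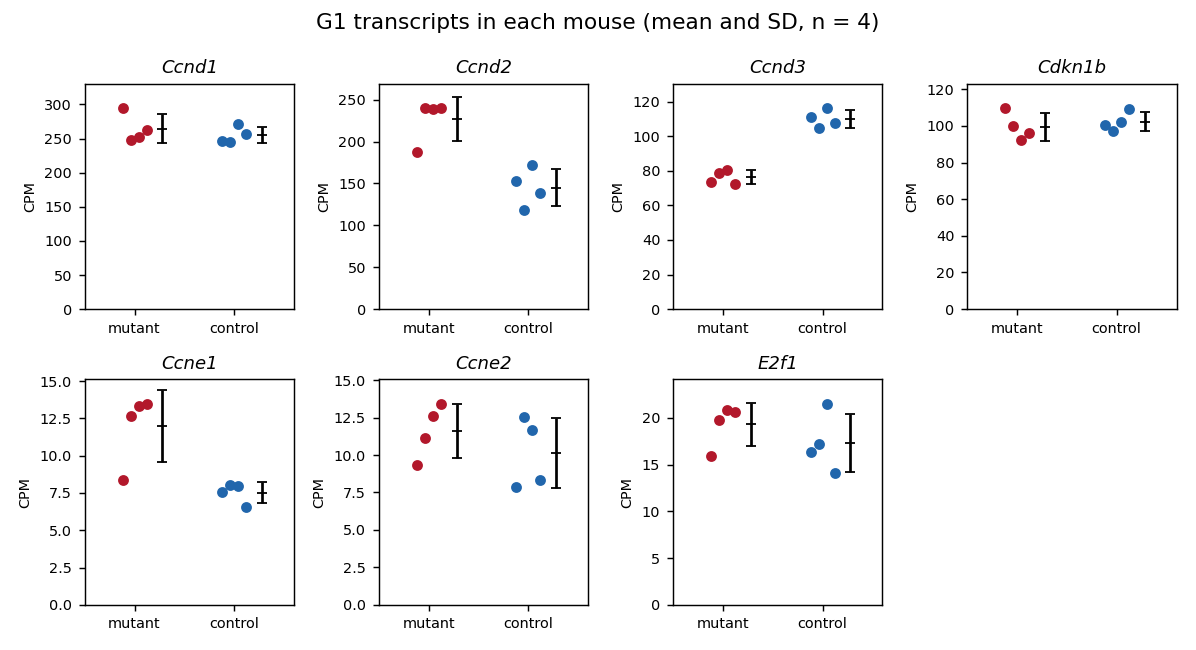
CPM of the 7 G1 members in each mouse, mutants left in red and controls right in blue, with the mean and SD of 4 mice beside the points. Ccnd2 and Ccne1 are higher and Ccnd3 is lower in all 4 mutants, and the other 4 genes overlap.

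Other genes of the same steps were counted in 3 wider lists. Of 50 other replication genes, 12 rose and 2 fell, and the other 36 missed the threshold; the median log2 fold change was 0.17. The share higher, 24.0%, was close to the 23.5% of all genes tested, and the share lower, 4.0%, was below the 22.7% of all genes. Dbf4, the activator of the CDC7 kinase that fires origins, rose by 0.62, the origin recognition gene Orc2 by 0.49 and Uhrf1, which maintains DNA methylation, by 0.79 on the log2 scale. Of 65 other mitotic genes, 20 rose and 2 fell, and the other 43 missed the threshold; the median was 0.23. In all 33.8% were called and 30.8% were higher, against 46.2% and 23.5% of all genes tested. Cdc25b, a phosphatase that activates CDK1, averaged 62.5 ± 3.21 CPM in mutants and 36.9 ± 2.03 CPM in controls (log2 fold change 0.76, adjusted p = 1.52e-06). Spc25, of the outer kinetochore, averaged 43.2 ± 3.72 CPM in mutants and 73.2 ± 11.6 CPM in controls (log2 fold change -0.76, adjusted p = 7.89e-05). The small CDK-binding subunits moved in opposite directions, as Cks1b rose by 0.54 and Cks2 fell by 0.41. In these 4 mitotic genes and the 3 replication genes named, no mutant overlapped a control. They were named for the smallest adjusted p of their lists, which makes such separation likely. Over the whole lists the groups lay apart for 15 of 65 mitotic and 12 of 50 replication genes, against 43.0% of all genes tested.

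Of 41 other G1 genes tested of 42, 14 rose and 5 fell, and the other 22 missed the threshold; the median was 0.05. The 46.3% called equalled the background of 46.2% to within 1 percentage point. Myc, a transcription factor that promotes growth, had 65.5, 77.2, 75.0 and 69.9 CPM in mutants, against 18.7, 16.6, 20.8 and 19.5 CPM in controls (log2 fold change 1.93, SE 0.08, adjusted p = 1.32e-08). Cdkn1a, which encodes the CDK inhibitor p21, had 145, 172, 149 and 166 CPM in mutants, against 75.4, 62.0, 66.7 and 69.6 CPM in controls (log2 fold change 1.21, SE 0.08, adjusted p = 1.69e-07). Btg2, an antiproliferative gene, and Ccng1, which encodes cyclin G1, both known as p53 targets, rose by 1.117 and 1.05 on the log2 scale. In none of these 4 genes, named for the smallest adjusted p of the list, did a mutant overlap a control. Over the whole list the groups lay apart for 18 of 41 genes, against 43.0% of all genes tested.

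Markers of the cells that could hold these transcripts also differed between groups. Of 8 macrophage markers all 8 were higher, with a summed level of 242 to 291 CPM in mutants and 133 to 149.7 CPM in controls. Of 5 markers of injured tubule all 5 were higher, with 447 to 515 CPM in mutants and 83.2 to 97.8 CPM in controls. All 10 proximal tubule markers, all 4 of the distal convoluted tubule and all 6 of endothelium were lower. Of 6 markers of nephron progenitors, which divide, 2 were higher and 2 lower, with a summed level of 40.2 to 47.9 CPM in mutants and 30.3 to 42.2 CPM in controls. Six2 itself was too scarce to test, with 6 to 15 counts per library in mutants and 0 to 3 in controls. The stroma markers summed to 3207 to 3922 CPM in mutants and 3301 to 4839 CPM in controls, with 2 of 7 lower. No marker of any list was at 0 in all libraries. Mut1819 had the highest macrophage sum but neither the highest injury sum nor the highest progenitor sum. It also had the lowest sums of the 4 mutants for the loop of Henle (1111 CPM, against 1403 to 1409 CPM in the other mutants), the collecting duct (554 CPM, against 733 to 868 CPM), the proximal tubule and the distal convoluted tubule, and the highest for stroma and endothelium. The part of these cell types in the differences of the cell cycle members was not tested.

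The authors' deposited table gives the same 11 members higher and the same 2 lower at an adjusted p under 0.05, and leaves the same 23 out.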

How the data were processed

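RNA of renal cortex from 8 mice was measured by sequencing. Per the labels' protocols, RNA was isolated with a Qiagen kit with a DNase step. Per the submitters' processing notes, Bowtie2, TopHat2, HTSeq and DESeq2 were used on build mm10; no version, annotation or strandedness is stated there. The table deposited by the authors holds raw read counts and FPKM values per gene and mouse, per the file headers. It also holds the authors' mean signal per group (normalized counts, not used), log2 fold change (mutant over control), p-value and adjusted p-value.

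Counts were tested on the whole table with edgeR 4.0.16 in R 4.3.3 (filterByExpr, TMM, quasi-likelihood test), with Benjamini-Hochberg adjustment over 15028 genes at 0.05. SE were taken from the moderated test statistic. FPKM, which count per gene length, served only to compare levels between genes. Pairs of libraries within a group differed by more than counting noise, with a reduced chi-square of 4.63 to 42.3 over 12 pairs. Nothing in the labels pairs mice across groups, and whether mice shared litters is not stated.

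The members, gene lists and tests were chosen with earlier results of these data known. All 36 members are named, with the 4 genes of smallest adjusted p in each wider list, of which 1 is not reported here; ratios and Pcna-ps2 were chosen after their values were seen. Positions come from GENCODE M21 on mm10, and copies were searched with BLAST at 99% identity. Other settings were DESeq2 1.42.0, limma-voom (limma 3.58.1), median-ratio size factors, mitochondrial genes left out, no filter, a filter at 10 CPM in 4 libraries, each mouse left out, terms for the mouse number range and for Y-linked counts, and Mut1819 alone. Data for this comparison were also simulated with 14882 genes, of which 14684 were left unchanged. Of about 50 genes each changed by 1.25, 1.5, 2 and 4-fold, 22.0, 61.2, 88.0 and 98.0% were called. In the measured data 46.2% of the genes tested were called. The Benjamini-Hochberg cutoff depends on the share of changed genes, which makes the simulation no measure of power in the real comparison.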

Additional observations from a re-analysis of the deposited data

Results flagged for a closer look

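In 72 groups of 4 values (36 members in mutants and in controls), 4 held a value set apart from the other 3, about the number that chance gives at 1 in 20. Mut1819 was set apart above the other mutants for Ccna2, with 59.8 CPM against 43.4 to 46.0 CPM, and for Nusap1, with 40.7 CPM against 30.2 to 31.97 CPM. Mut1393 was set apart below the other mutants for Ccne1, with 8.38 CPM against 12.7 to 13.5 CPM, and for Ccnd2, with 188 CPM against 239 to 240.3 CPM. Both low values of Mut1393 were still above all controls.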

How the results depend on the processing

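Of the 36 members, 12 kept their direction and their side of the threshold in all settings that tested them. The 3 G1 calls did so in every fit that included them, although the filter at 10 CPM dropped Ccne1 and left 1 G1 member called higher. With the Y-linked term, S phase members called higher and lower numbered 1 and 0, mitotic members called higher 15, and all genes 1891 higher and 2076 lower. With Mut1819 alone against the controls, where the lone library is assumed to vary as the controls do, these numbers were 1 and 0, 10, and 1682 and 2002. Leaving out each mouse gave 2 to 6 S phase members higher and 3 to 8 mitotic members higher, with 1 S phase member lower and 0 mitotic members lower throughout, and 3083 to 3570 genes higher and 2967 to 3462 lower. The cause was not tested.

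Values near 0 that changed sign were 0.24 for Ccnb2, 0.29 for Cenpf and 0.26 for Birc5 with the Y-linked term and with Mut1819 alone, 0.0102 for Cenpf with the mouse number range term and 0.0065 for Birc5 with no filter. With a mouse left out, Ccnb2 ranged from -0.147 to 0.0562, Cenpf from -0.147 to 0.0467, Birc5 from -0.112 to 0.133, Nusap1 from -0.0731 to 0.0889 and Ccnd1 from -0.00152 to 0.0851. No scaling moved the median of all genes by over 0.1. The lowest count of a member in a library was 108. No paired analysis was possible because the groups share no mouse numbers. The mouse number range was fitted as a term instead and called 9 mitotic members higher.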

Other observations

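Within a library, the ratio of Ccnd2 to Ccnd3 in CPM was 2.55, 3.04, 2.96 and 3.31 in the 4 mutants, in the order used above, against 1.37, 1.13, 1.47 and 1.28 in the 4 controls. The ratio of Mcm6 to Mcm7 was 1.13, 0.846, 1.05 and 1.08 in mutants, against 1.505, 1.74, 1.70 and 1.66 in controls. The ratio of Cks1b to Cks2 was 0.841, 1.02, 1.19 and 0.900 in mutants, against 0.586, 0.427, 0.527 and 0.524 in controls. The ratio of Ccnb1 to Ccnb2 averaged 1.15 ± 0.0799 in mutants and 0.832 ± 0.0790 in controls (SD, n = 4 each). The ratio of Ccne1 to Ccne2 was 0.896, 1.14, 1.06 and 1.004 in mutants, against 0.960, 0.641, 0.679 and 0.783 in controls, and here Mut1393 was below Con1391. Of the 5 ratios computed, the groups lay apart in 4, and all were chosen after values were seen, so no test is given.

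Pcna-ps2, a copy of Pcna on mm10 chromosome 19 (9283380 to 9284160, plus strand), had 232 and 312 counts in Mut1453 and Mut1454, 0 and 2 counts in Mut1393 and Mut1819, against 3 counts in Con1391, 1 in Con1452 and 0 in both Con1822 and Con1823. The high libraries are both mutants with mouse numbers in the 1400 range, and Con1452, in the same range, had 1 count. Pcna itself had 122 and 132 CPM in Mut1453 and Mut1454. When the counts of the copy were added to those of Pcna, the level was 137 ± 9.88 CPM in mutants and 115 ± 8.24 CPM in controls (SD, n = 4 each), a log2 ratio of 0.26. With the copy added, the lowest mutant was Mut1393 at 124 CPM, against 122 CPM in the highest control, so the groups no longer overlapped. The sum was formed after the values were seen. It raised Mut1453 by 13.4 CPM and Mut1454 by 15.2 CPM, and Mut1453 alone had overlapped the controls. The lack of overlap is therefore no separate support for a difference in Pcna. Why only these libraries hold counts of the copy was not tested.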
